A study of Zea mays with 12 samples.

Results

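The genes described here are those of the cytokinin two-component signalling pathway, taken as every gene whose KEGG orthology entry in the deposited table holds K14489, K14490, K14491 or K14492. Of the 33589 genes of the table, 67 met this rule, and 38 of the 67 passed the filter on low values and were tested among 22985 genes. The orthology numbers stand for histidine kinases (K14489, 12 genes, 8 tested), phosphotransfer proteins (K14490, 5 genes, 3 tested), type-B response regulators (K14491, 37 genes, 21 tested) and type-A response regulators (K14492, 13 genes, 6 tested).

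In plants, cytokinin is perceived by membrane histidine kinases, which phosphorylate themselves and pass the phosphoryl group to small phosphotransfer proteins that move between cytoplasm and nucleus. The proteins hand it to response regulators. Type-B response regulators carry a receiver domain and a DNA-binding domain of the GARP type and switch on cytokinin target genes, whereas type-A response regulators have no such DNA-binding domain, are among the rapidly induced targets and damp the signal. Cytokinin is best known for its roles in cell division, shoot meristems and leaf senescence.

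Embryos were isolated from imbibed seeds of 2 maize inbred lines, line 102 (Ji853, low temperature sensitive) and line 55 (Zao8-3, low temperature resistant). Seeds of both lines imbibed water for 6 h at 25 °C and then stayed for 2 h on germination paper at 10 °C (LT) or at 25 °C (CT). The 4 groups, LT_102, LT_55, CT_102 and CT_55, had 3 biological replicates each, and poly(A) RNA was sequenced in 12 libraries. Reads of both lines were counted against the gene models of the B73 reference, which is neither of them. In RNA from whole embryos, fewer cells of a type and less RNA per cell cannot be told apart.

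Library totals ran from 44028579 to 67873652 counts. The 9 embryo markers (oleosins, globulins and similar genes) summed to 40217 to 52429 CPM (read counts scaled to library size) in line 102 and to 31890 to 37163 CPM in line 55, and none was at 0. The 32 endosperm markers, mostly zeins, summed to 8.03 to 15.4 CPM in line 102 and to 26.5 to 39.6 CPM in line 55, with 12 to 22 of them at 0 in libraries of line 102 and 4 to 7 in libraries of line 55. Neither sum overlapped between the lines, but single markers did not all follow the sums. The globulin glb1 averaged 13457 CPM in LT_102 against 7567 in LT_55, and 16262 in CT_102 against 6997 in CT_55. Another embryo marker, LOC100286255, was lower in line 102 (831 against 1192 CPM in LT, 970 against 1302 in CT). The endosperm marker sh2 was higher in line 102 (7.21 against 4.41 CPM in LT, 5.92 against 3.32 in CT). The part of the markers in the line differences below was not tested. Replicate 3 of line 55 was the highest or the lowest of its group at both temperatures in 21 of the 38 tested members (55.3%) and in 46.9% of all tested genes, against 16.8% to 29.6% of all tested genes for each of the other replicates.

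Levels of the members are given as CPM on library sizes scaled by TMM, and not as FPKM, for a reason found in the table. The count divided by the FPKM gives the transcript length that the FPKM assumed. Over 11427 genes with a single transcript and more than 1000 counts, this length had a correlation of 0.02 with the span of the gene on the chromosome (both as logarithms, across genes), and in 21.3% of the genes it was longer than the gene itself. The dehydrin dhn1, which spans 986 bp, was divided by a length of 5168 bp. Among the tested members the assumed length ran from 168 to 4325 bp, and in 4 of the 38 it was longer than the gene. Within a gene the assumed length stayed the same between libraries where this could be checked: in the 35 tested members with 100 or more counts in more than 1 library, it deviated by at most 1.5% between those libraries. Levels of different genes were therefore not ranked against each other, since CPM are not per length and the FPKM rest on lengths that did not follow the genes. The filter was an FPKM of at least 0.5 in 3 libraries, which equals 0.08 to 2.16 CPM depending on the member.

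**Figure D1:**
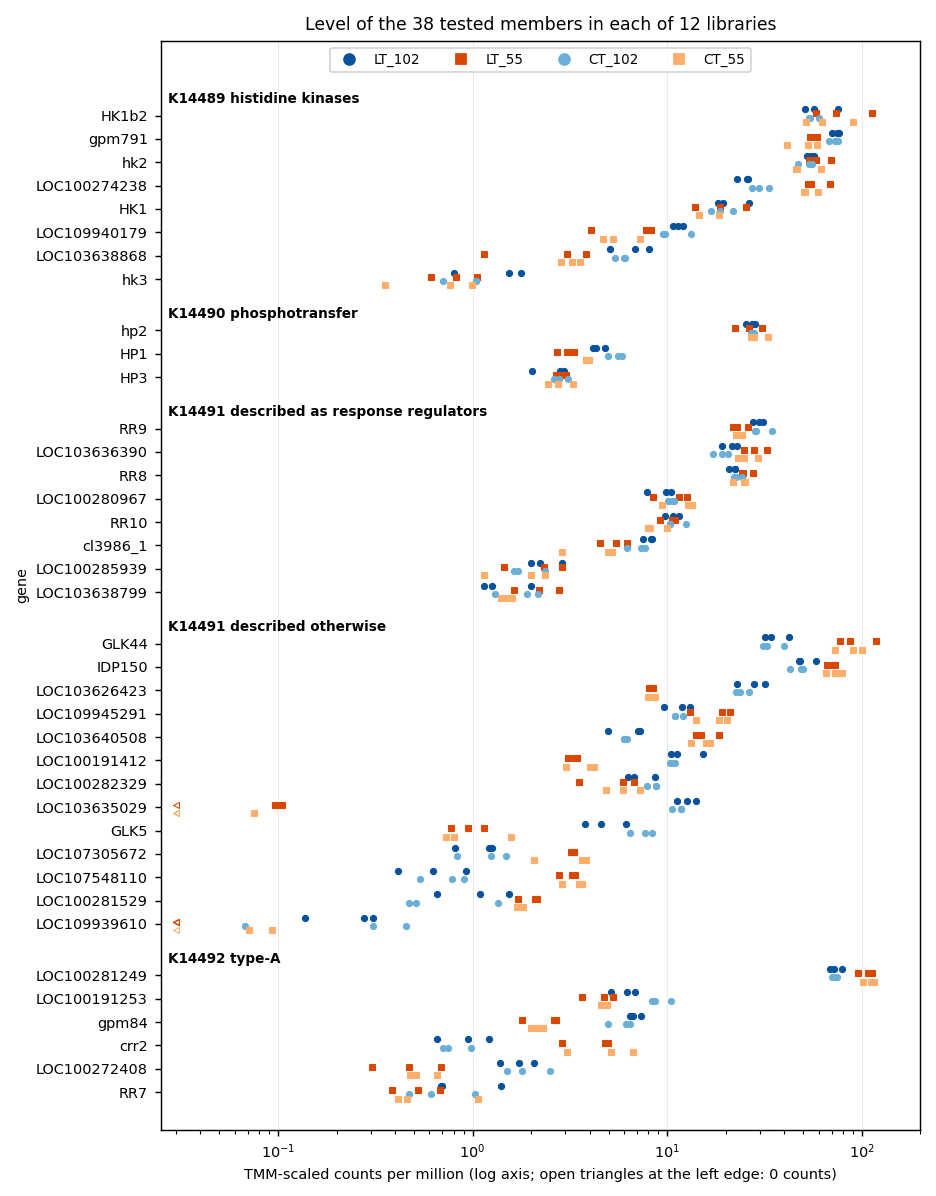
TMM-scaled CPM (log axis) of the 38 tested members in each library, with LT_102 and CT_102 as circles, LT_55 and CT_55 as squares, and libraries with 0 counts as open triangles at the left edge. Circles and squares of the same temperature do not overlap in 25 of the 38 members at 10 °C and in 26 at 25 °C. The shares over all tested genes were 68.8% and 66.3%. LOC103635029 lies at 0 to 0.11 CPM in line 55.

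The descriptions in the table were checked against the class names. All 12 histidine kinases, all 5 phosphotransfer proteins and 6 of the 13 type-A genes carried a gene ontology term for phosphorelay or cytokinin signalling, but only 10 of the 37 K14491 genes did. Only 12 of the 37 (8 tested) were described as response regulators. The other 25 (13 tested) were described mostly as KANADI, GLK, HHO, NIGT1, PCL1 or EFM proteins, as MYB-domain proteins, or as uncharacterized or unknown, and LOC103635029 also as a ubiquitin carrier protein. KANADI, GLK, HHO and PCL1 proteins are GARP or MYB-like transcription factors that share a DNA-binding domain type with type-B response regulators, and in Arabidopsis they act in leaf polarity, chloroplast development, nitrogen and phosphate responses and the circadian clock. These 25 genes are therefore called K14491 genes below and not type-B response regulators. Among the K14492 genes, LOC100281249 was described as a FYVE zinc finger protein, which goes against its class name. It carried no such ontology term, but neither did crr2, which is described as cytokinin response regulator 2.

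The 29 members left untested had few counts in these embryos. None of them reached 1 CPM in 3 libraries, 19 averaged under 0.1 CPM, and 12 were counted in 3 libraries or fewer. They include abph1 (mean 0.02 CPM), a type-A regulator whose loss changes the arrangement of maize leaves, and mwp1 (0.67 CPM) and kan1 (0.23 CPM), both KANADI genes. Some were nevertheless counted throughout, since mwp1 (at most 82 counts), GLK13 (47), gpm91 (34) and kan1 (27) had counts in all 12 libraries.

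Between the lines, the share of members called was below that of all tested genes at 10 °C and above it at 25 °C, and neither share was far from it. At 10 °C, 16 of 38 tested members (42.1%) were called, 9 higher and 7 lower in line 102 than in line 55, against 51.1% of all tested genes (25.1% higher, 26.1% lower). At 25 °C, 21 of 38 (55.3%) were called, 11 higher and 10 lower, against 48.1% of all tested genes (24.3% higher, 23.8% lower). A gene was called between lines where its log2 fold change was 0.585 or more in size and its unadjusted p was under 0.05 in edgeR's quasi-likelihood test. Every called member also had a Benjamini-Hochberg adjusted p under 0.05, except LOC109939610 at 25 °C. The median log2 fold change of the members was 0.07 at 10 °C and 0.19 at 25 °C, beside 0.003 and 0.01 over all tested genes. The median absolute change was 0.60 and 0.63, beside 0.70 and 0.64.

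The 16 members called at 10 °C were all called at 25 °C in the same direction (16 of 38, against 42.6% of all tested genes). Of the others, 5 passed at 25 °C only, and 17 passed at neither temperature (43.4% of all tested genes). Of the 22985 tested genes, 11754 were called at 10 °C, 11059 at 25 °C and 9787 at both in the same direction. The libraries of both lines did not overlap in 25 members at 10 °C and in 26 at 25 °C, against 68.8% and 66.3% of all tested genes.

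**Figure D2:**
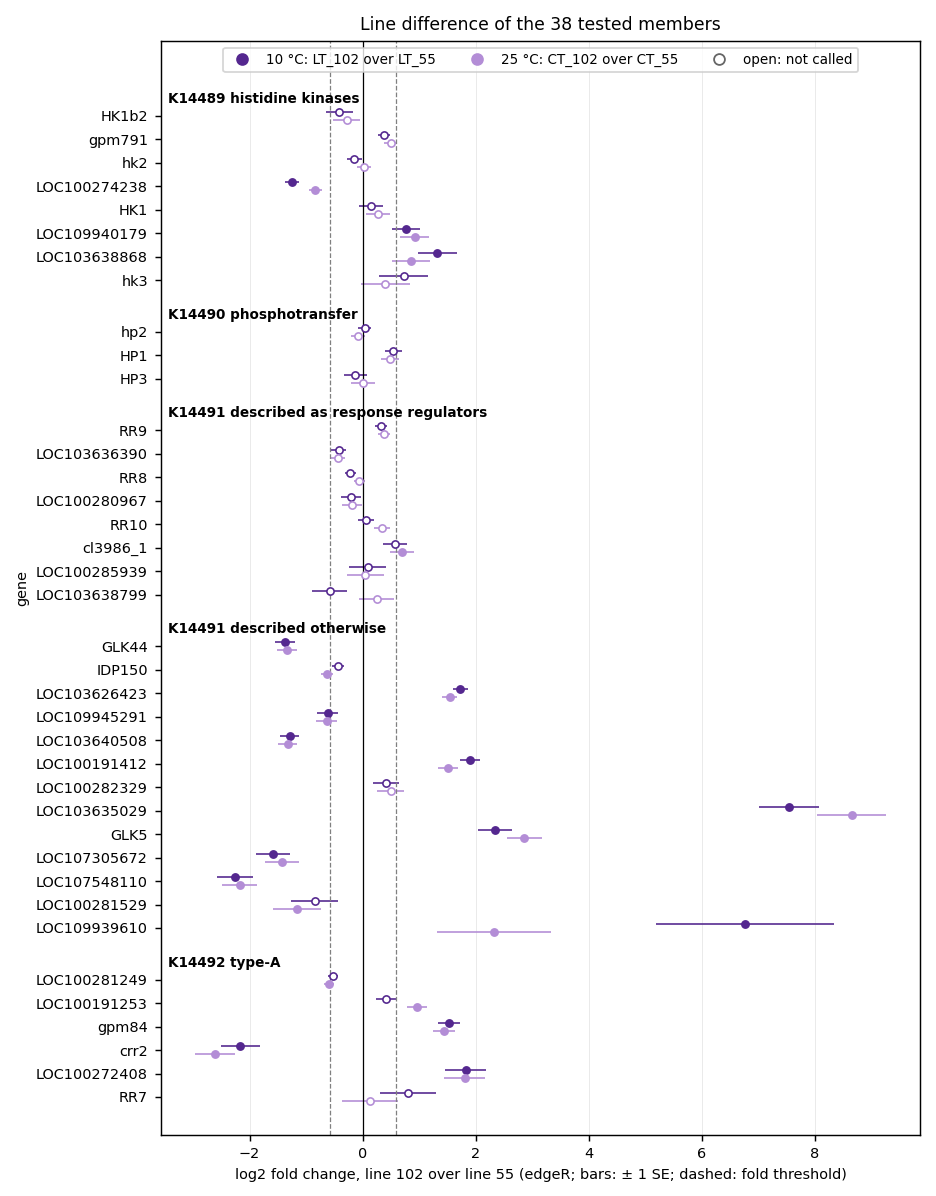
Log2 fold change of line 102 over line 55 for each tested member at 10 °C (dark) and 25 °C (light), with bars of 1 standard error, filled where called and open where not. The phosphotransfer genes and the K14491 genes described as response regulators lie between the dashed fold thresholds except cl3986_1 at 25 °C, while most other K14491 genes lie outside them on either side.

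Among the histidine kinases, LOC100274238 was lower and LOC103638868 and LOC109940179 were higher in line 102 at both temperatures, and the other 5 tested genes were not called, a share of 3 in 8 at each temperature beside 51.1% and 48.1% of all tested genes. LOC100274238 (chromosome 8, 166369249 to 166375280, B73 RefGen_v4) had 22.9, 25.6 and 26.0 CPM in LT_102, against 55.1, 52.7 and 68.9 CPM in LT_55, and 33.3, 27.4 and 29.5 CPM in CT_102, against 51.2, 50.6 and 59.2 CPM in CT_55. Every library of line 102 lay below every library of line 55, at both temperatures. Line 102 over line 55 gave a log2 value of -1.25 ± 0.12 (SE, n = 3 each) at 10 °C and -0.83 ± 0.12 at 25 °C, with edgeR adjusted p of 2.2e-06 and 6.8e-05. The table gives this gene no name beyond its kinase orthology number and a phosphorelay term.

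LOC103638868 (chromosome 9, 111174319 to 111183167) and LOC109940179 (chromosome 6, 98142971 to 98153893) are both described as probable histidine kinase 1. LOC103638868 had 6.87, 8.08 and 5.07 CPM in LT_102, against 3.07, 3.81 and 1.14 CPM in LT_55, and 5.97, 6.08 and 5.38 CPM in CT_102, against 3.26, 3.55 and 2.85 CPM in CT_55. No library of line 102 overlapped with line 55, and the lowest value of all, 1.14 CPM, belonged to replicate 3 of LT_55. On the log2 scale it was higher by 1.32 ± 0.34 at 10 °C and 0.85 ± 0.34 at 25 °C (edgeR adjusted p = 0.0045 and 0.045). At 25 °C the unadjusted p was above 0.05 and the call ended when replicate 1 or 3 of CT_55 or replicate 1 or 2 of CT_102 was left out, with log2 fold changes of 0.78 to 0.86. LOC109940179 had 11.4, 12.04 and 10.7 CPM in LT_102, against 7.83, 8.22 and 4.04 CPM in LT_55, and 13.2, 9.48 and 9.79 CPM in CT_102, against 5.24, 7.24 and 4.67 CPM in CT_55. It too was higher in every library of line 102, by 0.76 ± 0.25 at 10 °C and 0.92 ± 0.26 at 25 °C on the log2 scale (edgeR adjusted p = 0.019 and 0.0077). Without replicate 3 of LT_55, its difference at 10 °C was 0.52 and no longer reached the fold threshold.

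None of the kinases with established maize names was called between the lines. HK1b2 (chromosome 5, 10600421 to 10608440) had 56.8, 51.3 and 75.0 CPM in LT_102, against 73.3, 58.4 and 112 CPM in LT_55, and 54.0, 53.4 and 60.5 CPM in CT_102, against 51.6, 62.5 and 89.8 CPM in CT_55. Replicate 3 of line 55 was the highest library at both temperatures, the lines overlapped, and edgeR gave -0.41 ± 0.24 (10 °C) and -0.28 ± 0.24 (25 °C) on the log2 scale, or -0.09 and -0.02 without that replicate. The gene gpm791, also named HK1b1 (chromosome 1, 273671484 to 273677529), had 76.5, 70.0 and 74.8 CPM in LT_102, against 58.8, 54.1 and 57.8 CPM in LT_55, and 72.8, 67.6 and 75.4 CPM in CT_102, against 41.4, 53.0 and 58.8 CPM in CT_55. Here every library of line 102 lay above every library of line 55 with a log2 fold change of 0.37 ± 0.11 and 0.49 ± 0.11, under the fold threshold although the edgeR adjusted p was 0.011 and 0.0021. Without replicate 3 of both line 55 groups the difference at 25 °C was 0.62, past the fold threshold. The receptors HK1, hk2 and hk3 overlapped between the lines at both temperatures, with log2 fold changes of 0.14, -0.15 and 0.72 at 10 °C and 0.27, 0.02 and 0.40 at 25 °C. Of these, hk3 was the weakest in counts, so that its difference at 10 °C had a standard error of 0.43.

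None of the 3 tested phosphotransfer genes was called. For hp2 (chromosome 2, 170204371 to 170207337), the libraries had 25.3, 27.2 and 28.4 CPM in LT_102, against 26.2, 30.6 and 22.2 CPM in LT_55, and 27.0, 27.9 and 27.5 CPM in CT_102, against 26.8, 33.0 and 27.8 CPM in CT_55. The 12 values of hp2 overlapped across all groups, and its log2 fold change was 0.03 ± 0.12 and -0.09 ± 0.12 at 10 °C and 25 °C. HP1 (chromosome 1, 208050387 to 208053320) had 4.15, 4.82 and 4.33 CPM in LT_102, against 2.72, 3.07 and 3.33 CPM in LT_55, and 5.84, 4.96 and 5.60 CPM in CT_102, against 3.98, 3.82 and 3.93 CPM in CT_55. All libraries of line 102 were above those of line 55 at each temperature, with log2 fold changes of 0.54 ± 0.15 and 0.48 ± 0.15 that stayed under the fold threshold (edgeR adjusted p = 0.0082 and 0.016). Without replicate 3 of both line 55 groups the difference at 10 °C was 0.63, past the threshold. HP3 had log2 fold changes of -0.13 ± 0.21 and 0.00 ± 0.21.

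The 8 tested K14491 genes described as response regulators, which are RR8, RR9, RR10, the ARR12-like cl3986_1, the ARR11-like LOC100285939, LOC100280967 (ARR1-like), LOC103636390 (ORR26) and LOC103638799 (ORR25), were compared next. None of them was called at 10 °C and 1 at 25 °C, beside 51.1% and 48.1% of all tested genes. Their log2 fold changes had a median size of 0.27 and 0.30, beside 0.70 and 0.64 over all tested genes. The called gene, cl3986_1 (chromosome 5, 219584043 to 219585166), had 7.49, 8.27 and 8.34 CPM in LT_102, against 5.46, 4.51 and 6.23 CPM in LT_55, and 7.30, 6.18 and 7.68 CPM in CT_102, against 5.22, 2.89 and 4.97 CPM in CT_55. It was higher in line 102 with no overlap at either temperature, by 0.57 ± 0.21 at 10 °C, just under the threshold, and by 0.70 ± 0.21 at 25 °C (edgeR adjusted p = 0.032 and 0.014). Without replicate 2 of CT_55 the difference at 25 °C was 0.48, under the threshold, and without replicate 3 of both line 55 groups that at 10 °C was 0.70, past it.

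Smaller differences were seen in RR9 and LOC103636390, in opposite directions. RR9 was 29.4 ± 1.78 CPM in LT_102 and 23.5 ± 2.18 CPM in LT_55, and 30.5 ± 3.57 CPM in CT_102 and 23.5 ± 0.826 CPM in CT_55 (SD, n = 3 each), a log2 fold change of 0.32 and 0.38 with no overlap. LOC103636390 was 21.1 ± 1.89 CPM in LT_102 and 28.3 ± 3.89 CPM in LT_55, and 19.0 ± 1.66 CPM in CT_102 and 25.7 ± 3.05 CPM in CT_55, a log2 fold change of -0.43 and -0.44, again with no overlap. For RR8 the log2 fold change was -0.22 ± 0.10 and -0.06 ± 0.10, and for RR10 it was 0.05 ± 0.14 and 0.35 ± 0.14. LOC100280967, LOC100285939 and LOC103638799 overlapped between the lines at both temperatures, the last with a difference of -0.58 at 10 °C, or -0.74 and called without replicate 3 of both line 55 groups.

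Of the 13 tested K14491 genes with other descriptions, 10 were called at 10 °C (5 higher, 5 lower) and 12 at 25 °C (5 higher, 7 lower), beside 51.1% and 48.1% of all tested genes. The size of their log2 fold change had a median of 1.58 at 10 °C and 1.42 at 25 °C, beside 0.70 and 0.64 over all tested genes. These counts and medians, like those over the 38 members, include LOC103635029 and LOC109939610, which passed the filter through line 102 only, and LOC107548110, which passed it through line 55 only, so that these 3 had to differ between the lines. Taken by ontology term instead, 2 of the 7 tested K14491 genes with a phosphorelay or cytokinin term were called at each temperature, and 8 and 11 of the 14 without one. Whether these shares differ beyond chance was not tested, and this split was chosen with the results known.

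GLK44 and LOC103640508, described as the transcription factors HHO3 and HHO6, were lower in line 102. In Arabidopsis and rice, proteins of this family are repressors that respond to nitrate and phosphate. GLK44 (chromosome 1, 285335178 to 285337093) had 34.3, 31.9 and 42.4 CPM in LT_102, against 87.0, 77.0 and 119 CPM in LT_55, and 32.7, 40.0 and 31.2 CPM in CT_102, against 90.0, 72.9 and 99.8 CPM in CT_55. It was 2.6-fold lower in line 102 at 10 °C and 2.53-fold lower at 25 °C, with log2 fold changes of -1.38 ± 0.18 and -1.34 ± 0.18 and no overlap (edgeR adjusted p = 2.5e-05 and 3.5e-05). Replicate 3 of line 55 was the highest at both temperatures, and without it the log2 fold change was -1.16 and -1.23. LOC103640508 (chromosome 1, 166009979 to 166012326) had 4.96, 7.06 and 7.28 CPM in LT_102, against 14.9, 14.0 and 18.4 CPM in LT_55, and 6.02, 6.20 and 5.97 CPM in CT_102, against 13.3, 15.8 and 16.5 CPM in CT_55. Its log2 fold change was -1.29 ± 0.17 and -1.33 ± 0.17, and again the lines did not overlap (edgeR adjusted p = 2.6e-05 and 2.3e-05).

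LOC109945291, described as the transcription factor PCL1, a part of the evening complex of the clock in Arabidopsis (chromosome 3, 145898983 to 145900015), had 9.62, 13.2 and 11.9 CPM in LT_102, against 19.2, 21.0 and 13.1 CPM in LT_55, and 11.0, 11.99 and 11.0 CPM in CT_102, against 20.3, 18.4 and 14.0 CPM in CT_55. It was lower in line 102, with log2 fold changes of -0.62 ± 0.19 and -0.64 ± 0.19 (edgeR adjusted p = 0.013 and 0.012). At 10 °C the lines overlapped, since replicate 3 of LT_55 (13.1 CPM) was below replicate 2 of LT_102 (13.2 CPM). The fold change lay close to the threshold. At 10 °C it was -0.55 without replicate 1 of LT_55, -0.47 without replicate 2 of LT_55 and -0.50 without replicate 1 of LT_102, and at 25 °C it was -0.52 without replicate 1 of CT_55, none of them called. IDP150, an uncharacterized gene (chromosome 5, 6405069 to 6407262), had 47.8, 48.0 and 57.9 CPM in LT_102, against 66.3, 72.8 and 69.7 CPM in LT_55, and 42.9, 49.6 and 48.4 CPM in CT_102, against 79.3, 73.1 and 65.3 CPM in CT_55. Its libraries did not overlap, with a log2 fold change of -0.44 ± 0.10 at 10 °C, not called, and -0.63 ± 0.10 at 25 °C, called (edgeR adjusted p = 0.0024 and 0.0002). Without replicate 1 of CT_55 or of CT_102 the difference at 25 °C was -0.56 or -0.57, under the threshold.

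Larger differences were found in K14491 genes without a named function. LOC100191412 (chromosome 9, 13117983 to 13122693), uncharacterized but with a phosphorelay term, had 11.3, 10.4 and 15.3 CPM in LT_102, against 3.44, 3.36 and 3.08 CPM in LT_55, and 10.7, 10.3 and 11.0 CPM in CT_102, against 4.22, 4.03 and 3.02 CPM in CT_55. It was 3.75-fold and 2.85-fold higher in line 102 at 10 °C and 25 °C, with log2 fold changes of 1.91 ± 0.18 and 1.51 ± 0.18 and no overlap (edgeR adjusted p = 1.6e-06 and 1.3e-05). LOC103626423 (chromosome 5, 60590389 to 60603467) had 31.7, 28.0 and 22.8 CPM in LT_102, against 8.41, 8.09 and 8.36 CPM in LT_55, and 22.7, 26.4 and 23.6 CPM in CT_102, against 8.45, 8.68 and 7.94 CPM in CT_55. Again no library of line 102 overlapped with line 55, and line 102 was higher by 1.73 ± 0.13 and 1.54 ± 0.13 on the log2 scale (edgeR adjusted p = 1.9e-07 and 5.7e-07).

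GLK5, described as a MYB-domain protein (chromosome 10, 5023615 to 5025699), had 3.80, 4.58 and 6.13 CPM in LT_102, against 0.772, 0.947 and 1.14 CPM in LT_55, and 7.67, 8.33 and 6.46 CPM in CT_102, against 1.58, 0.728 and 0.806 CPM in CT_55. Line 102 was higher without overlap, by 2.34 ± 0.30 at 10 °C and 2.86 ± 0.31 at 25 °C (edgeR adjusted p = 2.8e-05 and 6.4e-06). LOC107305672, for which the table gives no description (chromosome 6, 151070479 to 151071665), had 1.25, 0.812 and 1.21 CPM in LT_102, against 3.32, 3.21 and 3.30 CPM in LT_55, and 1.25, 1.48 and 0.837 CPM in CT_102, against 2.07, 3.82 and 3.63 CPM in CT_55. This gene was lower in line 102 at both temperatures without overlap, with log2 fold changes of -1.58 ± 0.30 and -1.42 ± 0.30 (edgeR adjusted p = 0.00059 and 0.0013). LOC107548110 and the KANADI-like LOC100281529 were lower in line 102 as well, with log2 fold changes of -2.26 and -0.85 at 10 °C, the second not called, and of -2.18 and -1.16 at 25 °C, both called. For LOC100281529 the call ended without replicate 2 or 3 of CT_102, at -0.90 and -0.93.

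LOC103635029 (chromosome 8, 30866021 to 30875545) was counted almost only in line 102. It had 615, 810 and 650 counts in LT_102, against 6, 6 and 0 counts in LT_55, and 627, 657 and 644 counts in CT_102, against 0, 0 and 4 counts in CT_55. The fitted log2 fold change of 7.55 ± 0.53 and 8.65 ± 0.61 rests on these few counts in line 55. The gene holds more than 1 orthology number and is also described as ubiquitin carrier protein 7, and it overlaps a gene on the opposite strand (LOC100381574) over its whole 9525 bp. The library kit does not keep the strand, so reads of the overlapping genes cannot be told apart. LOC100381574 itself was given a mean FPKM of 0.119, and which of the genes the reads came from was not tested. LOC109939610, described as GLK2 (chromosome 5, 6107093 to 6113301), was near the limit of detection, with 15, 8 and 16 counts in LT_102, against 0, 0 and 0 counts in LT_55, and 4, 17 and 25 counts in CT_102, against 4, 4 and 0 counts in CT_55. With 3 counts per library put in place of the 0 counts of LT_55, it was 5.1-fold higher in line 102 at 10 °C. This is not a firm lower bound, since low counts in the deposited data were often multiples of 4. At 25 °C the lines overlapped, and the log2 fold change of 2.32 was no longer called when replicate 2 or 3 of CT_55, replicate 2 or 3 of CT_102 or any replicate of LT_102 was left out (1.74 to 2.61).

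Type-A genes were called at 10 °C in 3 of 6 and at 25 °C in 5 of 6, in both directions, beside 51.1% and 48.1% of all tested genes. Of those with a regulator name or description, crr2 was lower in line 102. Higher in line 102 were gpm84 (RR4), LOC100272408 (described as RR1-Corn type-A response regulator) and, at 25 °C, LOC100191253 (RR5). The gene crr2, cytokinin response regulator 2 (chromosome 10, 148670117 to 148671321), had 0.946, 0.656 and 1.21 CPM in LT_102, against 4.81, 4.98 and 2.87 CPM in LT_55, and 0.978, 0.703 and 0.746 CPM in CT_102, against 6.68, 5.13 and 3.07 CPM in CT_55. It was 4.49-fold lower in line 102 at 10 °C and 6.11-fold lower at 25 °C, with log2 fold changes of -2.17 ± 0.34 and -2.61 ± 0.35 (edgeR adjusted p = 0.00015 and 4e-05). Even the lowest line 55 libraries, both replicate 3, were more than the highest library of line 102.

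The gene gpm84 (chromosome 8, 162776403 to 162782047) had 6.48, 6.65 and 7.32 CPM in LT_102, against 2.67, 2.63 and 1.79 CPM in LT_55, and 4.99, 6.13 and 6.44 CPM in CT_102, against 2.17, 2.31 and 1.99 CPM in CT_55. Line 102 was 2.88-fold and 2.72-fold higher at 10 °C and 25 °C, with no overlap and log2 fold changes of 1.53 ± 0.19 and 1.44 ± 0.19 (edgeR adjusted p = 2e-05 and 3.7e-05). LOC100272408 (chromosome 10, 119894057 to 119896758) had 1.38, 1.73 and 2.06 CPM in LT_102, against 0.685, 0.305 and 0.471 CPM in LT_55, and 1.79, 2.49 and 1.51 CPM in CT_102, against 0.512, 0.479 and 0.656 CPM in CT_55. Although its counts were low, line 102 was above line 55 in all libraries, by 1.82 ± 0.36 and 1.81 ± 0.36 on the log2 scale (edgeR adjusted p = 0.00077 and 0.00088). RR7 did not overlap at 10 °C, overlapped at 25 °C and was not called, with log2 fold changes of 0.80 ± 0.50 and 0.13 ± 0.50.

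LOC100191253, also named RR5 or crr5 (chromosome 3, 149545177 to 149548929), had 6.81, 6.20 and 5.17 CPM in LT_102, against 4.72, 5.28 and 3.66 CPM in LT_55, and 10.5, 8.69 and 8.40 CPM in CT_102, against 4.91, 4.72 and 4.57 CPM in CT_55. At 25 °C line 102 was higher without overlap, by 0.96 ± 0.17 (edgeR adjusted p = 0.00043), whereas at 10 °C the lines overlapped with a difference of 0.41 ± 0.17 (adjusted p = 0.053). LOC100281249, the K14492 gene described as a FYVE protein (chromosome 7, 171436018 to 171439483), had 68.8, 72.1 and 79.0 CPM in LT_102, against 112, 108 and 95.4 CPM in LT_55, and 70.0, 74.8 and 72.2 CPM in CT_102, against 116, 111 and 102 CPM in CT_55. It was lower in line 102 without overlap, at -0.52 ± 0.09 on the log2 scale at 10 °C and -0.60 ± 0.09 at 25 °C, so that only the second passed the fold threshold (edgeR adjusted p = 0.00021 and 7.1e-05). Without replicate 1 or 2 of CT_55 or replicate 1 of CT_102 the value at 25 °C was -0.56 to -0.58, under the threshold.

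**Figure D3:**
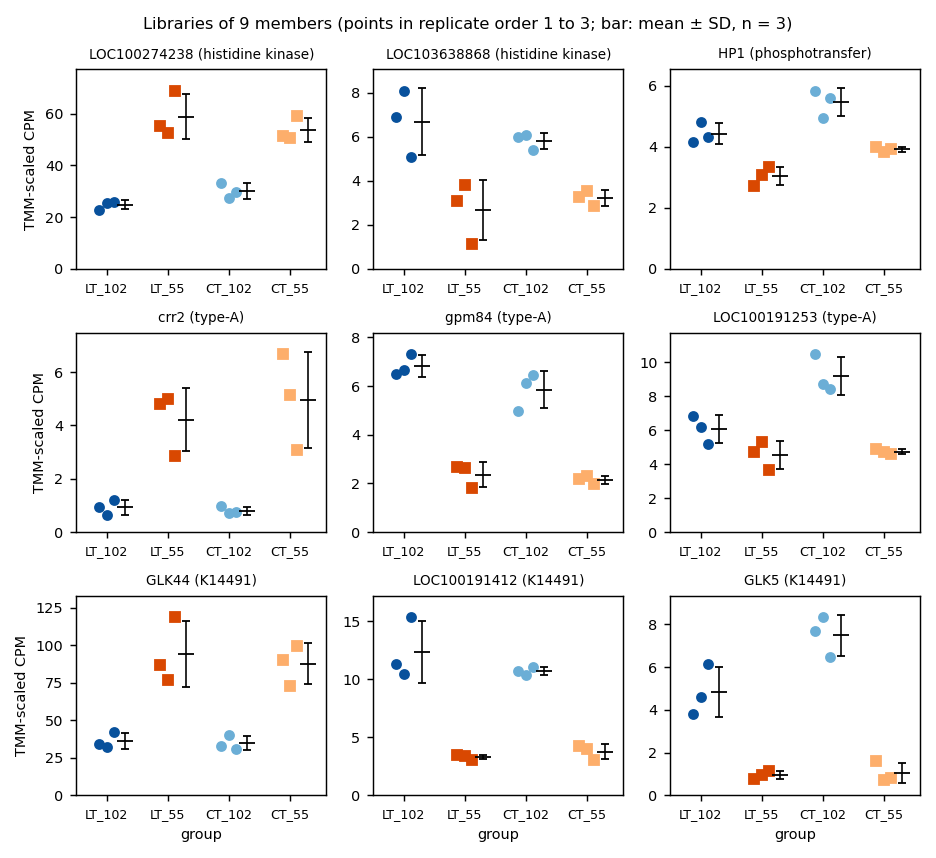
TMM-scaled CPM of 9 members in each library (points, in the order of replicates 1 to 3) with the group mean ± SD (bars, n = 3). The 9 are a selection, and all except HP1 were called between the lines at 1 temperature or both. In 8 of the 9 panels the lines are separated at each temperature, and LOC100191253 overlaps between the lines at 10 °C. Libraries of the lines did not overlap in 68.8% (10 °C) and 66.3% (25 °C) of all tested genes.

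The 2 h at 10 °C changed no member past the threshold in either line. The test was the adjusted p of edgeR's quasi-likelihood test under 0.05, which called 0 of 38 members in line 102 and 0 of 38 in line 55, against 0.679% and 0.0522% of all tested genes. At an unadjusted p under 0.05, 3 members were lower at 10 °C in line 102 and 2 in line 55, with none higher in either, beside 7.77% and 2.74% of all tested genes that were lower (13% and 4.43% in either direction). DESeq2 called 1 member in line 102 and 0 in line 55. The median log2 fold change of the members was 0.05 in line 102 and 0.03 in line 55, beside 0.008 and 0.003 over all tested genes. The median absolute change was 0.16 and 0.15, beside 0.17 and 0.12.

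**Figure D4:**
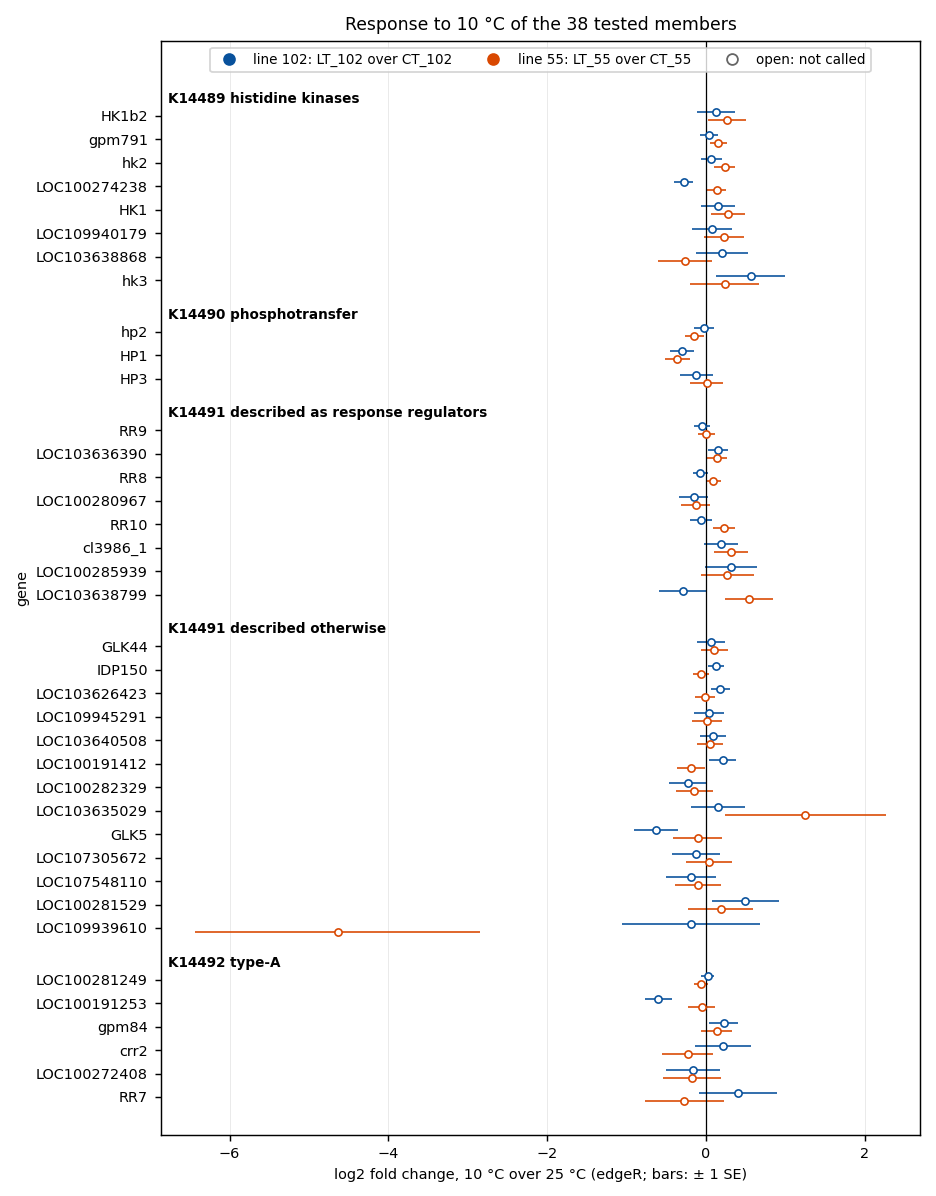
Log2 fold change of 10 °C over 25 °C for each tested member in line 102 (blue) and line 55 (orange), with bars of 1 standard error and open circles because none was called. All values lie within 1 log2 unit of 0 except those of LOC109939610 at -4.64 and LOC103635029 at 1.25 in line 55, and both genes had at most 6 counts in each library of that line.

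The lowest p in line 102 belonged to the type-A regulator LOC100191253, the one that DESeq2 called. It had 6.81, 6.20 and 5.17 CPM in LT_102, against 10.5, 8.69 and 8.40 CPM in CT_102, without overlap, a log2 fold change of -0.60 ± 0.17 (unadjusted p = 0.0042, adjusted p = 0.14 in edgeR). In line 55 the same gene had 4.72, 5.28 and 3.66 CPM in LT_55, against 4.91, 4.72 and 4.57 CPM in CT_55, with overlap and a log2 fold change of -0.06 ± 0.17. The kinase LOC100274238 had a log2 fold change of -0.28 ± 0.12 in line 102, where the temperatures did not overlap (edgeR adjusted p = 0.35), and of 0.13 ± 0.12 in line 55, where they did. For GLK5 the values were -0.63 ± 0.28 in line 102, without overlap, and -0.11 ± 0.31 in line 55.

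HP1 was the member in which the temperatures separated in both lines. All 3 libraries of LT_102 (4.15, 4.82 and 4.33 CPM) were under those of CT_102 (5.84, 4.96 and 5.60 CPM). Likewise, LT_55 (2.72, 3.07 and 3.33 CPM) was under CT_55 (3.98, 3.82 and 3.93 CPM). The log2 fold change was -0.30 ± 0.15 in line 102 and -0.36 ± 0.15 in line 55, with unadjusted p of 0.072 and 0.037 in edgeR, and neither passed after adjustment (adjusted p = 0.43 and 1). Libraries did not overlap between temperatures in 5 members in line 102 and in 2 in line 55, against 25.5% and 7.16% of all tested genes.

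The line by temperature interaction asks whether the lines responded differently. No member passed at an adjusted p under 0.05 (0 of 38, against 0.00435% of all tested genes, with 0 called by DESeq2). At an unadjusted p under 0.05 there were 3 members, LOC100274238, LOC100191253 and LOC109939610, beside 6.33% of all tested genes. For LOC100274238 the response of line 102 was lower than that of line 55 by 0.41 ± 0.17 on the log2 scale (adjusted p = 0.74 in edgeR), and for LOC100191253 by 0.55 ± 0.24 (adjusted p = 0.78).

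Genes that make and remove cytokinin were counted as lists beside the signalling genes. Of 8 genes for cytokinin synthesis, 3 were tested, and 1, IPT1, was called between lines at 10 °C. It is described as an isopentenyl transferase, an enzyme that attaches the isopentenyl side chain. IPT1 had 33.8, 33.9 and 54.0 CPM in LT_102, against 27.8, 33.7 and 17.3 CPM in LT_55, and 28.5, 33.6 and 36.4 CPM in CT_102, against 26.9, 31.4 and 21.3 CPM in CT_55. The lines separated by a margin of 33.8 against 33.7 CPM at 10 °C and overlapped at 25 °C, with a log2 fold change of 0.63 ± 0.25 at 10 °C and 0.31 ± 0.25 at 25 °C (edgeR adjusted p = 0.04 and 0.3). The list for cytokinin breakdown and conjugation held 31 genes, not all described as such. LOC100281173, described as a probable leucine-rich repeat receptor-like kinase, was called lower in line 102 at both temperatures. LOC103650766, described as unknown, was called higher at both. Of the 31 genes, 22 passed the filter. Between lines, 12 of them passed at 10 °C, 2 higher and 10 lower in line 102, and 11 at 25 °C, 2 higher and 9 lower, against 25.1% higher and 26.1% lower of all tested genes at 10 °C and 24.3% and 23.8% at 25 °C. Over these 22 genes the median was -0.77 (10 °C) and -0.54 (25 °C) on the log2 scale, beside 0.003 and 0.01 over all tested genes. These counts and medians include LOC100281803, with 0 to 2 counts per library in line 102 and 37 to 83 in line 55. It could pass the filter only through line 55, so it had to differ between the lines. The called genes LOC100216698, CKX4b and LOC100284856 had mean FPKM near the filter (0.54, 0.88 and 0.86). LOC100216698 and CKX4b had 15 to 42 counts per library in line 102 and 50 to 158 in line 55. LOC100284856 had 136 to 414 in line 102 and 43 to 98 in line 55. These too may have passed the filter mainly through 1 line.

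The 4 with the lowest p in that list were all lower in line 102. The cytokinin dehydrogenase si660055c01 (cytokinin dehydrogenase 4), which cleaves the cytokinin side chain, had 3.29, 2.87 and 3.30 CPM in LT_102, against 35.1, 31.2 and 59.9 CPM in LT_55, and 4.25, 3.77 and 2.84 CPM in CT_102, against 26.6, 24.6 and 49.1 CPM in CT_55. This was 13.3-fold lower at 10 °C and 9.23-fold lower at 25 °C in line 102, without overlap (edgeR adjusted p = 7.5e-07 and 2.5e-06). The other 3 are glucosyltransferases, of a family that stores cytokinin as glucosides. LOC100282611 was lower by 3.51 ± 0.22 and 4.22 ± 0.23 on the log2 scale at 10 °C and 25 °C, and LOC100283727 by 2.91 ± 0.20 and 2.12 ± 0.19. LOC103636476, described as cis-zeatin O-glucosyltransferase 2, was 16-fold and 4.03-fold lower. None of the genes of both metabolic lists was called for temperature or interaction.

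The ethylene receptors, which are related histidine kinases, had 13 listed and 10 tested genes. Between lines 7 were called at 10 °C (2 higher, 5 lower) and 2 at 25 °C (both higher), 7 and 2 of 10 beside 51.1% and 48.1% of all tested genes. LOC103633258 (ethylene receptor 4) was higher in line 102 by 1.17 ± 0.19 and 1.19 ± 0.19, and LOC100193682 was lower at 10 °C by 0.64 ± 0.13. A further called gene of this list, LOC111590862, is described as a FAR1-related protein and not as a receptor, and was at 0 to 0.09 CPM in line 55. It could pass the filter only through line 102, so it had to differ between the lines. LOC103625910, called lower at 10 °C, was near the limit of detection. It had 0, 0 and 0 counts in LT_102, against 19, 0 and 13 in LT_55. At 25 °C it had 21, 12 and 0 counts in CT_102, against 19, 16 and 0 in CT_55. Both genes are in the counts above. The gene etr2 had 19.1, 20.03 and 19.0 CPM in LT_102, against 32.5, 30.2 and 26.1 CPM in LT_55, and 40.4, 33.5 and 28.6 CPM in CT_102, against 32.2, 37.3 and 28.5 CPM in CT_55. All 3 libraries of LT_102 were below the other 9. It was the single gene of these lists called for temperature, with a log2 fold change of -0.82 ± 0.14 in line 102 (edgeR adjusted p = 0.027) and of -0.14 ± 0.14 in line 55 (adjusted p = 1), and its interaction had an adjusted p of 0.52.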

How the data were processed

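RNA-seq of maize embryos covered 12 libraries in 4 groups of 3, grouped by the sample labels. The authors aligned the reads to B73 RefGen_v4, and the submitters' notes name HISAT, StringTie and edgeR, with versions not given in the sources used here. The deposited table holds a read count and an FPKM per gene and library. Of the deposited counts between 1 and 20, 42.62% are multiples of 4. The deposited FPKM were proportional to the count over the library total within 5% in 8544 genes with a single transcript, and no library pair of 66 was identical. The FPKM were used for the filter and for rules fixed on them, and levels are given as CPM, because the length behind the FPKM did not follow the genes.

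The members and the gene lists were chosen with earlier results of these data known. Genes that reached an FPKM of 0.5 in 3 or more libraries were tested with edgeR's quasi-likelihood test (edgeR 4.0.16, R 4.3.3) on the counts, with TMM, 1 model over the 4 groups and Benjamini-Hochberg adjustment over all 22985 tested genes. Line 102 over line 55 was called where the log2 fold change was 0.585 or more in size and the unadjusted p under 0.05, the threshold stated in the methods of the study, and 10 °C over 25 °C and the interaction at an adjusted p under 0.05. The SE of a log2 fold change was derived from its F statistic. The p-values measure only the spread between these replicates. With 3 libraries against 3, an exact permutation test cannot go below 0.1, so single values are given as overlapping or not. Overlap was judged on TMM-scaled CPM.

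Values per library are given for each member called in any contrast with a mean FPKM of at least 1, and for the 2 members of each class with the highest mean FPKM. Other members named were chosen after their values were seen. At most 4 called genes per pathway list were named by lowest p. Alternatives were other filters, median ratio scaling, DESeq2 1.42.0, limma 3.58.1 on log2(FPKM + 0.1) and log2(FPKM + 1), counts divided by 4, only 2 groups in the fit, other thresholds, a replicate block and leaving out each library. A filter on 1 CPM and leaving out replicate 3 of both line 55 groups were added after seeing the data. Procedures were tested on simulated data. Names and synonyms came from a RefSeq gene list of NAM-5.0, which held 66 of the 67 members on the same chromosome, and coordinates are those of the table. Figures were drawn with Python 3.11.15 and matplotlib 3.10.9. Sequences of the genes are not shown here.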

Additional observations from a re-analysis of the deposited data

Results flagged for a closer look

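In 3 of 38 members the interaction had an unadjusted p under 0.05 in edgeR, beside 6.33% of all tested genes. None passed after adjustment over all tested genes. LOC100191253 had an interaction of -0.55 ± 0.24 on the log2 scale (adjusted p = 0.78), being lower in all 3 libraries of LT_102 than in CT_102 and overlapping in line 55. LOC100274238 had -0.41 ± 0.17 (adjusted p = 0.74), with the same pattern of overlap. LOC109939610 had 4.44 ± 1.98 (adjusted p = 0.78), and no library held more than 25 counts of it.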

How the results depend on the processing

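No called member reversed its direction under any alternative tried. Between the lines, the number of members called ranged from 14 to 24 at 10 °C and from 13 to 24 at 25 °C, the lowest at 25 °C being the 13 with a log2 fold threshold of 1 and the highest at both being those without a filter, where all 67 members were tested. Leaving out libraries gave 16 to 19 at 10 °C and 18 to 21 at 25 °C. For temperature, DESeq2 called 1 member in line 102 (LOC100191253, log2 fold change -0.60). Without replicate 3 of both line 55 groups, added after seeing the data, 1 member was called in line 55 (LOC103635029, from 0 to 6 counts per library), and leaving out libraries gave 0 to 1 there and 0 in line 102 and the interaction. The filter on CPM, added after seeing the data, kept 37 members and called 16 at 10 °C and 20 at 25 °C. Single calls were lost by LOC109945291 at 10 °C in 5 alternatives, and at 25 °C by LOC109939610 in 13, LOC100281249 in 5, IDP150 and LOC103638868 in 4 each and LOC100281529 and LOC109945291 in 3 each. Over all groups the replicate numbers showed little pairing (mean correlation of deviations 0.03 over 18 pairs). The 2 pairs over 0.1 both joined the temperatures within line 55, for replicate 2 (0.19) and replicate 3 (0.289). The main test of 10 °C over 25 °C in that line did not take this into account. With the replicate block 17 members were called at 10 °C, 20 at 25 °C and 0 for temperature or interaction. Low counts were often multiples of 4 (42.62% of those from 1 to 20), and with all counts divided by 4 there were 17 calls at 10 °C and 21 at 25 °C.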
